A study of Rattus norvegicus with 39 samples.

Results

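Both arms of rno-miR-34b (5p and 3p), both arms of rno-miR-34c and the 5p arm of rno-miR-449a were taken by name from a table of 405 mature miRNAs counted in rat sperm. These 5 rows are mature arms of 3 hairpins tied to male germ cells, and all 5 passed the filter on low counts, as did 105 of the 405 rows. The sperm came from the cauda epididymis of wild-type male Fischer rats 11 to 12 weeks old. The males had been gavaged daily for 5 days with EGME (ethylene glycol monomethyl ether), a solvent whose metabolite methoxyacetic acid is known to damage spermatocytes, and then left without exposure for 5 weeks. The groups were EGME0 (water vehicle, n = 10 males), EGME50 (50 mg/kg/d, n = 10), EGME60 (60 mg/kg/d, n = 9) and EGME75 (75 mg/kg/d, n = 10). Each of the 39 libraries held the RNA of a single male. All groups shared the strain, the gavage and the recovery time.

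A miRNA hairpin is cut by Dicer into a short duplex of a 5p and a 3p strand, and the strand loaded into Argonaute guides it to messenger RNAs, chiefly through the seed near its 5′ end. miR-34b and miR-34c are made from a shared primary transcript, and miR-449a belongs to a second cluster with the same 5p seed. Both clusters are active in spermatocytes and spermatids and in cells with motile cilia, and mice that lack both have defects of sperm and of cilia. Spermatozoa carry these miRNAs from the testis, and some small RNAs are added during transit through the epididymis.

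The sequences are shown because the results are given by arm, and the 5p and 3p arms have different seeds (bases 2 to 8, in capitals). All are RefSeq mature sequences of the rat assembly GRCr8, printed 5′ to 3′.
rno-miR-34b-5p: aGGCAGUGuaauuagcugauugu
rno-miR-34c-5p: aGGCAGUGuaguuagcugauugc
rno-miR-449a-5p: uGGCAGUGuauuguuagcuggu
rno-miR-34b-3p: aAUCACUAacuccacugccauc
rno-miR-34c-3p: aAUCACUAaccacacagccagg
The 3 5p arms shared the seed GGCAGUG, and the pair of 3p arms shared AUCACUA. Of the 372 rows of the table with a RefSeq sequence, 5 had the 5p seed: the 3 above, miR-34a-5p and miR-449c-5p. No row other than miR-34b-3p and miR-34c-3p had the 3p seed.
miR-34b-5p and miR-34c-5p were identical at 21 of 23 positions. Counted from the 5′ end, with miR-34b-5p first, they differed by A11G and U23C. The counting rule for near-identical reads is not given in the sources used here, so some reads may have been split between them. miR-34b-3p and miR-34c-3p were identical at 17 of 22 positions, and no member repeated the counts of another row.

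The hairpins are shown to place the arms, with both mature strands in capitals.
Mir34b: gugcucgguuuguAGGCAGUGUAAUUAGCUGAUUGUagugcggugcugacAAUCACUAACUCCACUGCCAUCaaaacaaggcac
Mir34c: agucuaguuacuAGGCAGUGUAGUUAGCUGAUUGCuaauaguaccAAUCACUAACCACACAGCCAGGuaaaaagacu
In GRCr8, Mir34c and Mir34b are neighbours on the same strand, beside Btg4, and Mir34c lies within Hoatz, a gene of motile cilia. Mir449a neighbours Mir449c. In the RNAcentral table of the same libraries, the precursor entries of miR-34b and miR-34c held 4 and 3 counts over all 39 libraries.

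The miRNA table was shallow, and its depth moved with dose. It held 1098 to 38208 counts a library at EGME0, 1681 to 33951 at EGME50, 1990 to 37020 at EGME60 and 139 to 8633 at EGME75, where 3 libraries were under 1000. The lowest was EGME75 replicate 24, in which miR-449a-5p, miR-34b-5p and miR-34c-3p each had 0 of 139 counts, which allows a share of up to 2.16% (3 counts, counting error only). The miRNA table was 0.178% ± 0.0731 (SD, n = 10) of the counts of all 4 deposited tables at EGME0 and 0.0554% ± 0.0522 (SD, n = 10) at EGME75.

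In control sperm the 5 rows were abundant. Their sum was 26.3% ± 4.35 (SD, n = 10) of miRNA counts, between 19.8% and 33.1%. miR-34b-3p ranked 1st of all miRNAs by mean share, miR-34c-5p 5th, miR-34c-3p 6th, miR-449a-5p 7th and miR-34b-5p 19th. miR-34b-3p alone held 51.1% ± 12.8 (SD, n = 10) of the counts of the 5 rows.
At EGME75 the sum was 13.9% ± 4.60 (SD, n = 10), between 6.47% and 22.1%. There miR-34b-3p ranked 3rd, miR-34c-5p 7th, miR-449a-5p 14th, miR-34b-5p 22nd and miR-34c-3p 28th. Counting bias between sequences was not measured, so ranks compare read numbers and not molecules.

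The values below are normalised counts per 1000000 of the miRNA table (CPM, scaled by the trimmed mean of M-values, TMM). Changes are log2 fold changes from edgeR's quasi-likelihood fit of all 105 miRNAs, called at a Benjamini-Hochberg adjusted p below 0.05. In RNA of whole sperm samples, fewer cells that carry a miRNA and less of it in each cell cannot be told apart.

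At EGME75 the 3p arms had the largest changes of the 5 rows, and both fell. There miR-34b-3p and miR-34c-3p were at 29.3% and 17.9% of their control means, and in both the highest EGME75 library lay below the lowest control library. Such a gap was found for 3 of the 105 miRNAs tested (2.86%), and the other was miR-204-5p, looked up after the values were seen. As a plain share of miRNA counts, without TMM, the gap remained for miR-34b-3p (highest at EGME75 7.82%, lowest control 7.94%) but not for miR-34c-3p (highest at EGME75 2.01%, lowest control 1.59%).
rno-miR-34b-3p is the strand opposite the seed-family arm of its hairpin. Its control libraries ran from 102932 to 293924 CPM with a median of 167343. At EGME50 the lowest, median and highest were 42751, 104502 and 196797 CPM, and 5 of 10 males were below every control. At EGME60 they were 32039, 75700 and 202074 CPM, and 6 of 9 males were below every control. At EGME75 they were 23448, 53277 and 81649 CPM, below every control in 10 of 10 males. The EGME60 males split widely, and 3 of them stayed within the control range.
The log2 change of miR-34b-3p was -0.71 (SE 0.32, edgeR adjusted p = 0.224) at EGME50. It was -0.83 (SE 0.33, adjusted p = 0.0485) at EGME60 and -1.76 (SE 0.33, adjusted p = 2.16e-05) at EGME75. At EGME60 this was smaller than the changes of miR-34c-3p, miR-449a-5p and miR-34c-5p, and the call was marginal. It was lost under 5 of 10 alternatives and without any 1 of 12 of the 19 libraries (EGME0 replicates 1, 2, 17, 18, 25, 26, 33 and 34, EGME60 replicates 5, 14, 22 and 38), with adjusted p from 0.0506 to 0.154.

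rno-miR-34c-3p is the opposite strand of the second hairpin. Its control libraries ran from 19632 to 72901 CPM with a median of 49763. At EGME50 the lowest, median and highest were 9312, 24338 and 83380 CPM. Replicate 11 was the highest there and stood above every control, while the others were at or below 42125. At EGME60 they were 2811, 13131 and 56067 CPM, and 6 of 9 males were below every control. At EGME75 they were 0, 8298 and 17727 CPM, below every control in 10 of 10 males. These values rest on 0 to 67 counts a library. Replicate 24 had 0 of 139 counts, which allows a share of up to 2.16%, above the lowest control share of 1.59%.
The log2 change of miR-34c-3p was -0.64 (SE 0.36, edgeR adjusted p = 0.312) at EGME50. It was -1.22 (SE 0.38, adjusted p = 0.0102) at EGME60 and -2.41 (SE 0.39, adjusted p = 1.93e-06) at EGME75, the fourth lowest of 105. At EGME60 the call was lost without replicate 14, 22 or 38 of that group (adjusted p = 0.0569, 0.0591 and 0.0653), when only those groups were fitted (0.0569) and with the totals of all 4 tables (0.137).

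**Figure D1:**
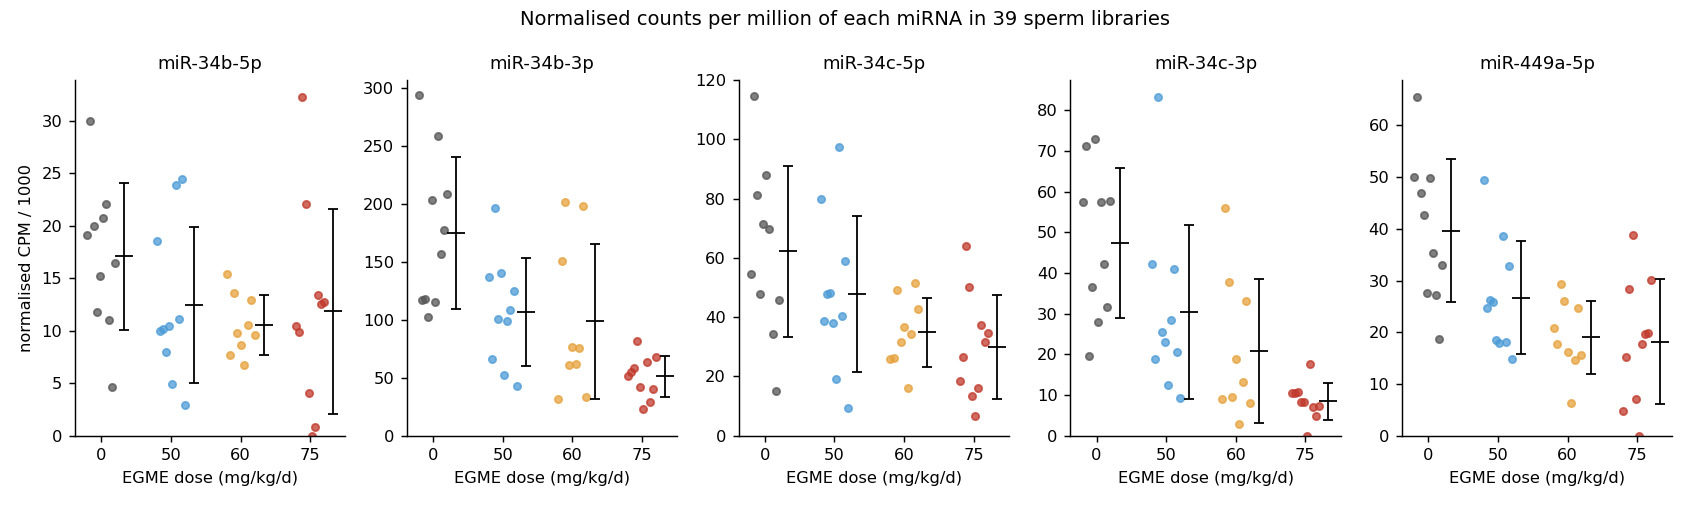
Normalised CPM divided by 1000 (vertical axis, starting at 0, with its own range in each panel) against EGME dose in mg/kg/d. Points are libraries, bars the mean ± SD (n = 10, 10, 9 and 10). For miR-34b-3p and miR-34c-3p all 10 libraries at 75 mg/kg/d lie below every control, while the 5p panels overlap.

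The 5p arms, which carry the seed of the family, had smaller changes at EGME75 and overlapped with controls, and 2 of the 3 fell. rno-miR-34c-5p ran from 14954 to 114675 CPM in controls, with a median of 62142. At EGME50 its lowest, median and highest were 9312, 44116 and 97510 CPM, and at EGME60 16038, 34472 and 51481 CPM. At EGME75 they were 6700, 29076 and 64009 CPM, and 9 of 10 males were below the control median but 2 below every control. Control replicate 33, the library of 1098 miRNA counts, set the low end of the control range.
The log2 change of miR-34c-5p was -0.38 (SE 0.33, edgeR adjusted p = 0.620) at EGME50, -0.84 (SE 0.34, adjusted p = 0.0501) at EGME60 and -1.02 (SE 0.33, adjusted p = 0.0104) at EGME75. At EGME60 it just missed the threshold and passed without EGME0 replicate 9, 26, 33 or 34 or EGME60 replicate 30 (adjusted p from 0.0257 to 0.0496). It also passed with RLE factors (0.0422), with DESeq2 (0.0265) and in limma-voom with a random chip effect (0.0461).

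rno-miR-449a-5p comes from the other cluster and shares the 5p seed. It ran from 18692 to 65529 CPM in controls, with a median of 38985. At EGME50 its lowest, median and highest were 14815, 25320 and 49460 CPM, and at EGME60 6283, 17665 and 29305 CPM. At EGME75 they were 0, 18665 and 38812 CPM, below the control median in 10 of 10 males and below every control in 5. Its level was thus about as low at EGME60 as at EGME75.
The log2 change of miR-449a-5p was -0.57 (SE 0.31, edgeR adjusted p = 0.306) at EGME50, -1.06 (SE 0.33, adjusted p = 0.0102) at EGME60 and -1.05 (SE 0.32, adjusted p = 0.00583) at EGME75. It kept its EGME60 call in 19 of 19 fits without 1 library, the only member to do so, and lost it with the totals of all 4 tables (adjusted p = 0.170).

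rno-miR-34b-5p was the least abundant of the 5 rows and the one not called at any dose. It ran from 4673 to 30021 CPM in controls, with a median of 17801. At EGME50 its lowest, median and highest were 2963, 10362 and 24441 CPM, and at EGME60 6779, 9767 and 15377 CPM. At EGME75 they were 0, 11534 and 32313 CPM, so the EGME75 libraries spread beyond the control range at both ends. 3 of 10 males were below every control and replicate 15 was above every control. Those 3, replicates 23, 24 and 31, held 4, 0 and 2 counts of miR-34b-5p. The lowest control, replicate 33, held 5, so the low end of both ranges lies near the floor.
The log2 change of miR-34b-5p was -0.46 (SE 0.35, edgeR adjusted p = 0.560), -0.71 (SE 0.36, adjusted p = 0.122) and -0.45 (SE 0.35, adjusted p = 0.296) at the 3 doses.

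By count, 0 of the 5 rows were called lower at EGME50 (0% of the 105 miRNAs were, with 1 member and 19 of all at unadjusted p below 0.05; DESeq2 also called 0 members). At EGME60, 3 of 5 were called lower against 11.4% of all tested, and at EGME75 4 of 5 against 21%. For the slope over all 4 doses it was 4 of 5 against 21%. Calls in either direction took 2.86%, 31.4%, 42.9% and 45.7% of all tested at EGME50, EGME60, EGME75 and for the slope. No member was called higher, while 20%, 21.9% and 24.8% of all tested were at EGME60, EGME75 and for the slope. The median change of the 5 rows was -0.57, -0.84 and -1.05 at the 3 doses, beside -0.01, 0.11 and -0.10 for all tested. These dose comparisons share the same control libraries, and the 5 rows are not 5 independent measures, since each miR-34 hairpin gives 2 of them.

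**Figure D2:**
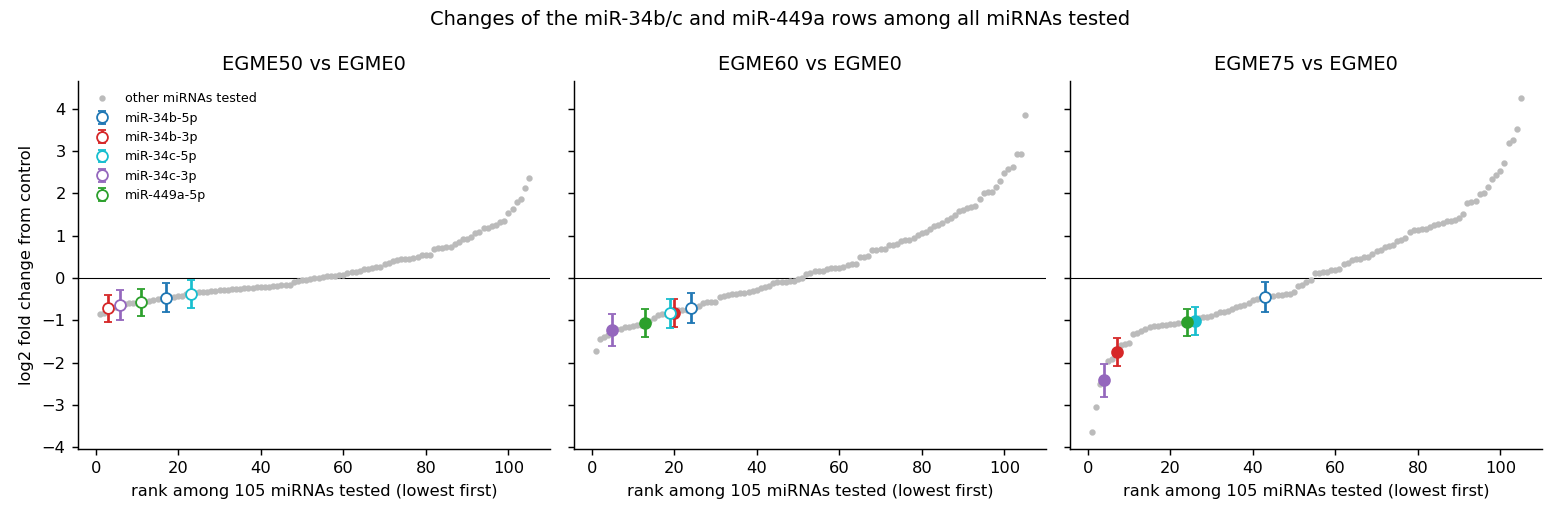
Log2 fold change from control (vertical axis) of the 105 miRNAs tested, ranked from lowest to highest, at each dose. Coloured circles are the 5 rows with SE, filled where adjusted p was below 0.05; at EGME75 miR-34c-3p ranks 4th and miR-34b-3p 7th from the lowest, and miR-34b-5p 43rd.

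Over 75 mg/kg/d the fitted log2 change was -1.98 (SE 0.39, edgeR adjusted p = 5.4e-05) for miR-34c-3p and -1.50 (SE 0.32, adjusted p = 1.26e-04) for miR-34b-3p. It was -1.10 (SE 0.29, adjusted p = 0.0016) for miR-449a-5p, -0.99 (SE 0.31, adjusted p = 0.00677) for miR-34c-5p and -0.57 (SE 0.32, adjusted p = 0.141) for miR-34b-5p. The slope of miR-34b-5p passed with chip as a fixed block (-0.88, edgeR adjusted p = 0.0484) and in limma-voom with a random chip effect (-0.78, adjusted p = 0.0423). With the totals of the miRNA table, the slopes of miR-34c-5p (-0.45, edgeR adjusted p = 0.168) and miR-449a-5p (-0.59, adjusted p = 0.0578) did not pass, nor did that of miR-34c-5p with the log10 miRNA total as covariate (-0.38, adjusted p = 0.285). Neighbouring doses did not separate: edgeR called 0 of 105 miRNAs (0%) between EGME50 and EGME60 and 0 (0%) between EGME60 and EGME75. At unadjusted p below 0.05 these steps held 14 and 8 miRNAs, among them 0 and 2 members. The 2 were the 3p arms, at -0.93 (SE 0.33, edgeR adjusted p = 0.232) for miR-34b-3p and -1.19 (SE 0.39, adjusted p = 0.232) for miR-34c-3p from EGME60 to EGME75. The same step was 0.26, -0.18 and 0.01 for miR-34b-5p, miR-34c-5p and miR-449a-5p. With the totals of all 4 tables, or without a filter, both 3p arms were called at that step, among 2 of 105 and 3 of 404 called lower.

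Because both arms of a hairpin are read in the same library, their ratio needs no scaling between libraries. Both arm ratios depend on how reads of the near-identical 5p arms were assigned, which is not given in the sources used here. miR-34b was read mostly as its 3p arm, in 39 of 39 libraries. The 5p/3p ratio of miR-34b had a median of 0.0823 in controls (0.0289 to 0.256), 0.0986 at EGME50 (0.0522 to 0.242), 0.113 at EGME60 (0.0534 to 0.480) and 0.1998 at EGME75 (0.0161 to 0.556). At EGME75, 8 of 10 males were above the control median, 4 above every control and replicate 31 below every control. The ratio of replicate 31 rests on 2 counts of 5p and 155 of 3p, and that of replicate 24 on 0 and 7. The lowest control ratio, of replicate 33, rests on 5 counts of 5p and 190 of 3p. The mean log2 ratio was 0.82 higher at EGME75 than in controls (SE 0.55, exact two-sided permutation p = 0.154, adjusted p = 0.462 over 9 ratio tests), which did not pass.
miR-34c was read about equally from both arms in controls, with 5p above 3p in 5 of 10 libraries. 5p was above 3p in 7 of 10 libraries at EGME50, 8 of 9 at EGME60 and 9 of 10 at EGME75. The median 5p/3p ratio was 1.09 in controls (0.478 to 4.14), 1.76 at EGME50 (0.574 to 3.43), 2.62 at EGME60 (0.469 to 5.57) and 4.81 at EGME75 (0.908 to 6.47). At EGME75, 9 of 10 males were above the control median all but replicate 31, and 6 were above every control. One of those 6 was replicate 24, whose ratio rests on 2 counts of 5p and 0 of 3p.
The mean log2 ratio of miR-34c was 1.42 higher at EGME75 than in controls (SE 0.43, exact permutation p = 0.00586). Adjusted over the 9 tests this was 0.0527, just over the threshold. It passed without EGME0 replicate 9 (exact permutation test, adjusted p = 0.0187) or 18 (0.0303), and without EGME75 replicate 7 (0.0449), 23 (0.0398) or 31 (0.0148). It did not pass under the 4 other settings tried, in which the difference ran from 1.20 to 1.54 with adjusted p from 0.0699 to 0.219. At EGME50 and EGME60 the difference was 0.34 (SE 0.38, exact permutation adjusted p = 0.687) and 0.83 (SE 0.47, adjusted p = 0.418).
No difference in the balance of the hairpins was detected. The log2 ratio of miR-34b to miR-34c, both arms summed, was 0.82 ± 0.67 (SD, n = 10) in controls and 0.80 ± 0.46 (SD, n = 10) at EGME75. The difference was -0.02 (SE 0.26, exact permutation adjusted p = 0.931), and the differences at EGME50 and EGME60 were -0.14 (SE 0.25) and 0.05 (SE 0.29).

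**Figure D3:**
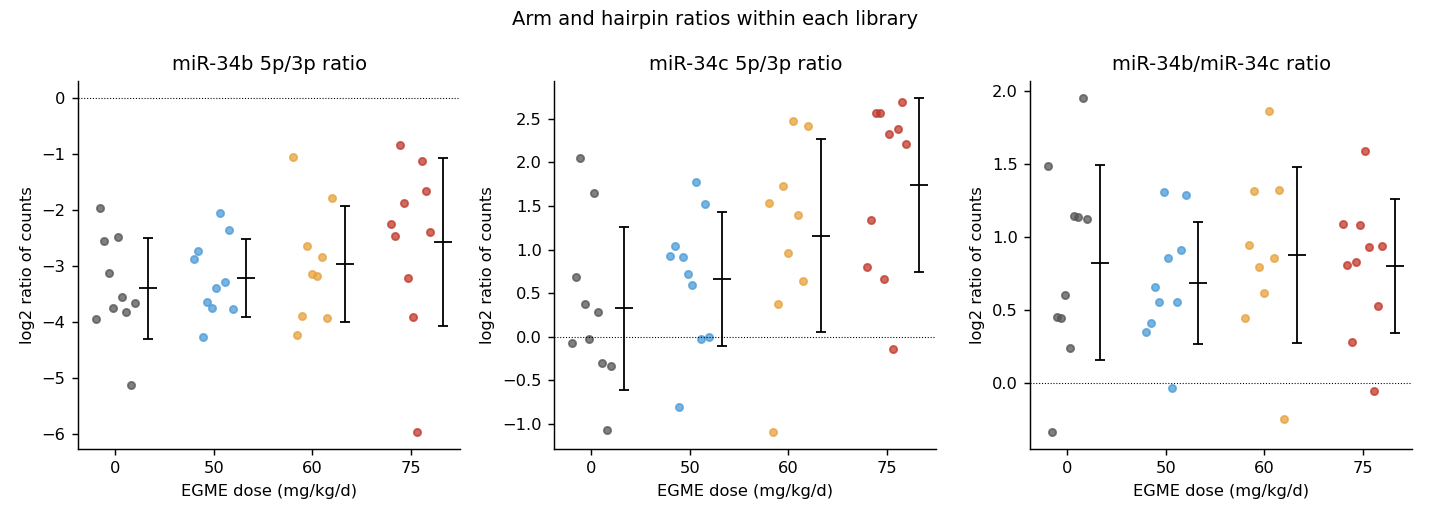
Log2 ratio of counts within each library (vertical axes, 0.5 added to each count) against EGME dose in mg/kg/d, for the arms of miR-34b, the arms of miR-34c and the pair of hairpins. Points are libraries, bars the mean ± SD, the dotted line equal counts; the miR-34c arm ratio is above every control in 6 of 10 libraries at 75 mg/kg/d.

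Across libraries, the same arm of miR-34b and miR-34c had a higher correlation than the opposite arms of either hairpin. Over the 39 libraries, Pearson's r of log2 CPM was 0.82 between miR-34b-3p and miR-34c-3p and 0.83 between miR-34b-5p and miR-34c-5p. Within hairpins it was lower, 0.44 for the arms of miR-34b and 0.64 for those of miR-34c. Without EGME75 replicate 24, a choice made after seeing the data, the same 4 values were 0.85, 0.82, 0.31 and 0.52. miR-449a-5p over 39 libraries was at 0.82 with miR-34b-5p, 0.77 with miR-34c-5p, 0.79 with miR-34c-3p and 0.55 with miR-34b-3p. Without that library these were 0.59, 0.80, 0.56 and 0.52. With each group's mean removed, over all 39 libraries, the 3p pair was at 0.68 and the 5p pair at 0.81. These are descriptions: the points share their scaling and depth, and reads of the near-identical 5p arms may have been shared.

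The size of each change depended on the scaling. Against the counts of all 4 tables, miR-34b-3p was at 251 ± 159 (SD, n = 10) reads per 1000000 at EGME0 and 31.5 ± 26 (SD, n = 10) at EGME75, and miR-34c-3p at 61.6 ± 27.1 and 4.37 ± 3.21. On that scale miR-34c-5p went from 85.8 ± 53.4 to 20.03 ± 22, miR-449a-5p from 56.1 ± 33 to 12.4 ± 14.5 and miR-34b-5p from 23.9 ± 14 to 7.61 ± 9.24. edgeR with those totals called all 5 rows lower at EGME75, by -3.74 for miR-34c-3p to -1.60 for miR-34b-5p (adjusted p = 0.0196 for the latter), while it called 39 of all 105 miRNAs lower and their median was -1.13. At EGME60 it called 0 of the 5 and 0 of the 105 lower.
With the totals of the miRNA table alone, the median of all tested was 0.49 and 10 of 105 were called lower at EGME75. miR-34b-3p (-1.15) and miR-34c-3p (-1.80) were still called, miR-34c-5p (-0.41, adjusted p = 0.246) and miR-449a-5p (-0.49, adjusted p = 0.169) were not, and miR-34b-5p was at 0.15. Measured from the median of all tested, the changes were alike under TMM, RLE and both kinds of totals. They ran from -2.61 to -2.29 for miR-34c-3p, -1.86 to -1.64 for miR-34b-3p, -1.01 to -0.96 for miR-449a-5p, -0.95 to -0.86 for miR-34c-5p and -0.47 to -0.28 for miR-34b-5p. A change of scaling moves all miRNAs nearly together, and the median takes that shift out. The likeness thus follows largely from the measure and is no separate test.
Since the median miRNA total was lowest at EGME75, the totals were also entered in the fit. With the log10 miRNA total as a covariate the 3p arms were at -1.60 (miR-34b-3p) and -2.40 (miR-34c-3p), both called by edgeR (median of all tested 0.32, with 10 of 105 called lower). miR-34c-5p was then at -0.09 (adjusted p = 0.852), miR-449a-5p at -0.49 (adjusted p = 0.267) and miR-34b-5p at 0.49 (adjusted p = 0.314). With the 3 EGME75 libraries under 1000 counts left out, 14 of 114 tested were called lower, and the 3p arms were called again, at -1.52 and -2.22. miR-34c-5p was at -0.61 (adjusted p = 0.140) and miR-449a-5p at -0.60 (adjusted p = 0.0919). The calls of both 3p arms at EGME75 held under all 10 alternatives and in 20 of 20 fits without 1 library. Those of miR-34c-5p and miR-449a-5p held under 7 of 10 and in 20 of 20.

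**Figure D4:**
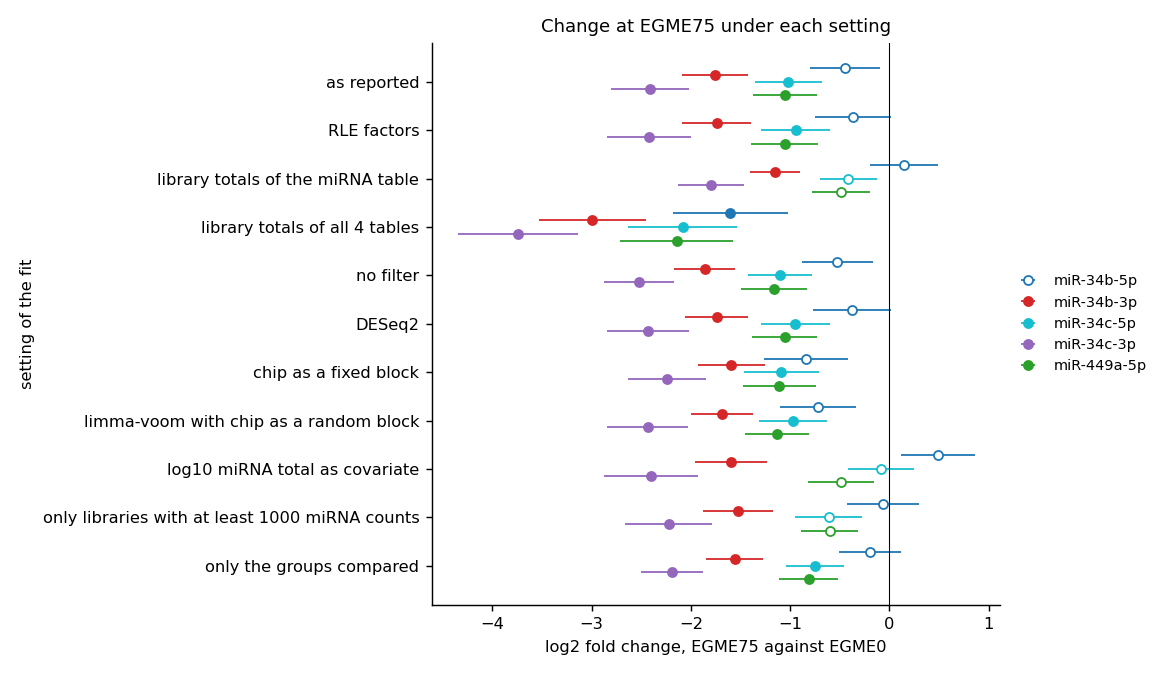
Log2 fold change at EGME75 against EGME0 (horizontal axis) with SE for each of the 5 rows under each setting of the fit. Filled circles passed adjusted p below 0.05; the 3p arms are filled in every row, and miR-34b-5p only with the totals of all 4 tables.

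**Figure D5:**
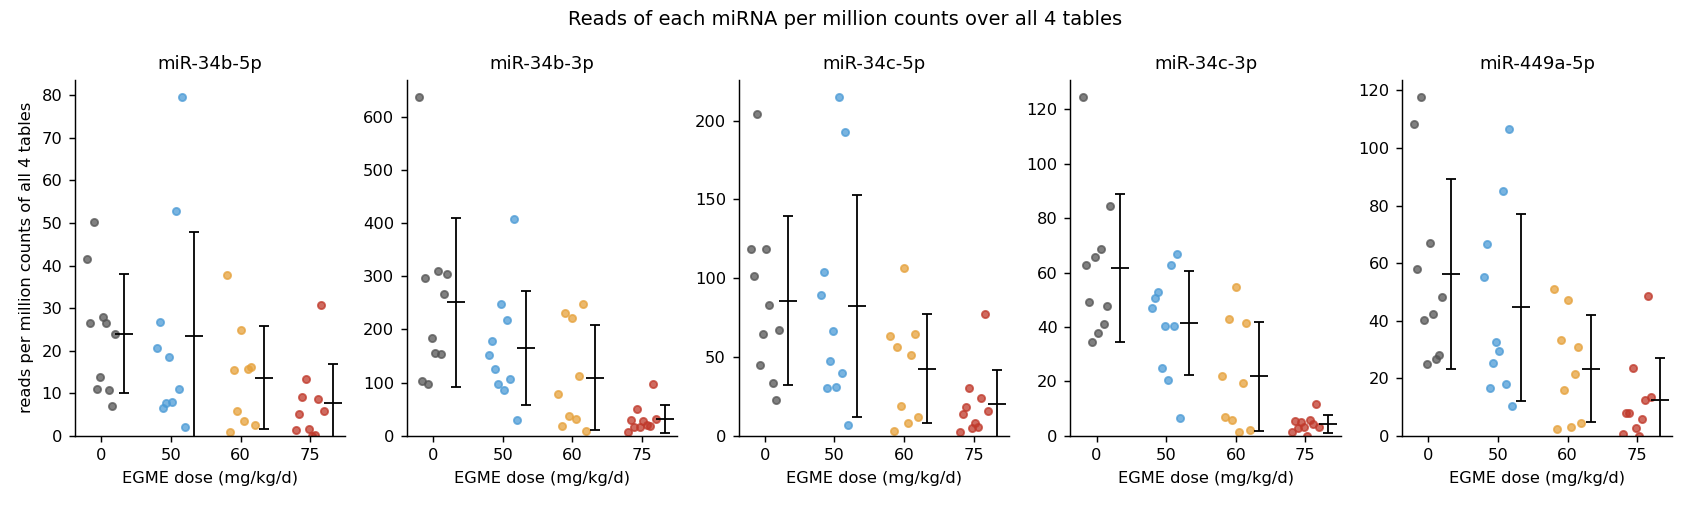
Each miRNA's reads relative to the summed counts of all 4 tables, in reads per 1000000 (vertical axis, starting at 0, with its own range in each panel) against EGME dose in mg/kg/d, with the mean ± SD. On this scale miR-34c-3p lies below every control in 10 of 10 libraries at 75 mg/kg/d and miR-34b-3p in 9 of 10.

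The libraries were run on 13 chips with the doses mixed, at most 3 libraries a chip. On the 6 chips that held both a control and an EGME75 library, every member but miR-34b-5p was lower at EGME75 on 6 of 6, and miR-34b-5p was on 5 of 6. The median within-chip log2 difference was -2.22 for miR-34c-3p and -1.93 for miR-34b-3p. Without EGME75 replicate 24, over 5 chips, it was -1.997 and -1.48. With chip as a fixed block, edgeR gave -2.24 and -1.59 for these 2, and the same 4 members were called at EGME75.

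Other miRNAs of the family and of other cells were listed for comparison. The family list held 5 more arms, of which 4 were in the table, 1 was tested and 0 were called. The one tested, miR-34a-5p, a p53 target expressed in many tissues, was at 757 ± 875 CPM (SD, n = 10) in controls and 2095 ± 2055 (SD, n = 10) at EGME75, a log2 change of 1.16 (SE 0.60, edgeR adjusted p = 0.109). miR-449c-5p and miR-449a-3p had 13 counts each over all libraries, too few to test.
Of 13 other germ cell entries, which matched 22 rows, 15 rows were tested. At EGME75 4 were called lower and 1 higher, with a median of -0.46, where 21% of all tested were called lower and 21.9% higher. Those lower were miR-743a-5p (-3.04, SE 0.80, with counts in 26 libraries), miR-743b-5p (-1.31) and miR-741-3p (-1.16) of the testis-rich X-linked cluster and miR-18a-5p (-1.22). miR-871-3p was higher (2.02). The opposite arms miR-743a-3p (-0.39, edgeR adjusted p = 0.315), miR-743b-3p (-0.60, adjusted p = 0.297) and miR-871-5p (0.33, adjusted p = 0.608) were not called. The summed level of the 22 rows was 35515 to 91701 CPM in controls and 13399 to 58942 at EGME75.
Several listed markers of blood cells and epithelium were called higher at EGME75, as were 21.9% of all tested. Of 7 blood miRNAs, 6 were in the table and 3 tested, all 3 called higher at EGME75, and their summed level was 0 to 4722 CPM in controls and 2055 to 38697 at EGME75. Of 5 epithelial miRNAs, 4 were tested and 3 called higher, with sums of 7448 to 15599 and 14511 to 38414 CPM. Of 4 muscle miRNAs, 2 were tested and 1 called higher, with sums of 12403 to 37345 and 9249 to 83071 CPM. Of 3 testis somatic miRNAs, 2 were tested and 1 called higher, with sums of 218 to 2508 and 825 to 10049 CPM. The one called was miR-320-3p (1.81, SE 0.62, edgeR adjusted p = 0.0134), and miR-202-5p was not called (1.41, SE 0.99, adjusted p = 0.243). Among the blood rows, miR-144-3p had 0 counts in all control and all EGME75 libraries. Untested miR-142-5p was lower (mean CPM 304 in controls, 110 at EGME75) and untested miR-142-3p higher (39.2 and 64). Of the untested muscle rows, miR-133a-3p was at 1775 ± 5592 CPM (SD, n = 10) in controls and 265 ± 641 (SD, n = 10) at EGME75. miR-1-3p had counts in 1 library, a control. In epithelium, untested miR-141-3p was at 10.3 and 189 CPM. miR-200c-3p, tested but not called, was at 7882 and 8957 CPM. Plain shares of miRNA counts sum to a fixed total, so a rise of some miRNAs lowers the share of others. TMM-scaled CPM do not sum to a fixed total, but they too are relative to the other miRNAs of the same library. The part of these markers in the lower level of the 5 rows was not tested.

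By the rule for likeness, the highest Pearson's r over 39 libraries among 93 other miRNAs was that of miR-93-5p for miR-34c-3p (0.90), miR-7a-5p for miR-34b-3p (0.82), miR-17-5p for miR-34c-5p (0.86), miR-151-5p for miR-449a-5p (0.90) and miR-743a-3p for miR-34b-5p (0.82). The next for miR-34c-3p, miR-449a-5p and miR-34b-5p were miR-741-3p (0.83, 0.88 and 0.80) and miR-19b-3p (0.81, 0.86 and 0.80). For miR-34b-3p they were miR-743a-5p (0.70) and miR-20a-5p (0.70), and for miR-34c-5p miR-18a-5p (0.79) and miR-30e-5p (0.78). Without EGME75 replicate 24, the 5 highest became 0.81, 0.80, 0.84, 0.69 and 0.59 in the order given. miR-741-3p became 0.66, 0.59 and 0.53 and miR-19b-3p 0.60, 0.54 and 0.53 for miR-34c-3p, miR-449a-5p and miR-34b-5p. miR-743a-5p and miR-20a-5p became 0.69 and 0.68 for miR-34b-3p, and miR-18a-5p and miR-30e-5p 0.76 and 0.75 for miR-34c-5p. All partners given for miR-449a-5p and miR-34b-5p, and both further ones for miR-34c-3p, thus rested in part on that library.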

How the data were processed

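Small RNA of cauda sperm was sequenced in 39 libraries, 1 per male (mirVana extraction with DNase, 10 ng RNA into the Ion total RNA-seq kit, per the labels' protocols). The authors deposited 4 tables of raw counts of sense reads, of which the mature miRNA table was tested and the others served as totals. The submitters' processing notes name FastQC, Bowtie and DESeq2 with no role. Versions, mismatches allowed and the treatment of shared reads are not given in the sources used here. Of the miRNA values, 17 were 1 and 1088 were 2. All columns matched a sample (unmatched: 0), and no libraries were identical.

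Counts were tested with edgeR 4.0.16 (R 4.3.3, limma 3.58.1): TMM, filterByExpr, robust quasi-likelihood fits over all 39 libraries, with Benjamini-Hochberg adjustment over the 105 miRNAs kept, which held 97.1% of the counts. TMM factors ran from 0.668 to 2.21 and the common biological coefficient of variation was 0.588. The factors differed by dose, at 0.689 to 1.00 in EGME0 and 0.984 to 2.21 in EGME75, so CPM fell further than plain shares at EGME75. Alternatives were DESeq2 1.42.0, limma-voom with a random chip effect, a fixed chip term, RLE factors, plain totals, a covariate for the miRNA total, no filter, only deeper libraries, only the groups compared and leaving out each library. Ratios used log2 of counts plus 0.5 and exact permutation tests of the difference in means (scipy 1.17.1 and numpy 2.4.6). Log2 CPM for correlations had a prior count of 2. The miRNAs most like each member were the 3 highest by Pearson's r among the other tested miRNAs averaging 10 or more counts a library. The members, lists and alternatives were chosen with earlier results of these data known.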

Additional observations from a re-analysis of the deposited data

Results flagged for a closer look

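Of 32 sets of values checked for a library far from the rest (5 miRNAs and 3 ratios in 4 groups), 1 held such a library, and chance gives about 1 in 20. In EGME50, replicate 11 had 83380 CPM of miR-34c-3p, with the next highest at 42125 and the lowest at 9312. The same library was also the highest of EGME50 for miR-34b-3p, at 196797 CPM, and the lowest of EGME50 in both arm ratios. Without it, no member was called at EGME50.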

How the results depend on the processing

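No paired analysis was possible because each replicate number belonged to 1 male of 1 group. The reported fits held no chip term, and chip entered only in alternative settings, as a fixed term or a random effect. The number of members called at EGME50 and between EGME50 and EGME60 stayed at 0 throughout. At EGME60 it fell from 3 to 0 with the totals of all 4 tables (0 of 105 miRNAs called lower) and to 1 with only the groups compared (7 of 83), and was 1 to 4 without single libraries. At EGME75 it fell from 4 to 2 with the totals of the miRNA table, with the log10 miRNA total as covariate and with only libraries of at least 1000 miRNA counts (10 of 105, 10 of 105 and 14 of 114 called lower, against 22 of 105 as reported), and for the slope to 2 with the totals of the miRNA table (11 of 105). Between EGME60 and EGME75 it rose from 0 to 2 with the totals of all 4 tables (2 of 105) and without a filter (3 of 404). The causes were not tested.

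Signs turned only for changes that did not pass. For miR-34b-5p at EGME75 these were 0.15 (totals of the miRNA table) and 0.49 (log10 total as covariate), and between EGME50 and EGME60 0.092 with that covariate. Between EGME60 and EGME75, miR-34b-5p was at -0.78 (totals of all 4 tables), -0.073 (chip as a fixed block) and -0.031 (limma-voom), and without single libraries it ran from -0.027 (without EGME75 replicate 15) to 0.45. There miR-34c-5p was at 0.073, 0.47 and 0.15 (totals of the miRNA table, covariate, at least 1000 counts), and miR-449a-5p at -0.87 and -0.16 (totals of all 4 tables, no filter). Without single libraries, miR-34b-3p ran from -0.36 to 0.10 between EGME50 and EGME60, turning in 5 fits, and miR-449a-5p from -0.10 to 0.15 between EGME60 and EGME75, turning in 5. The miR-34b arm ratio at EGME50 was -0.069 with chip as a fixed term, and -0.0082 (without EGME0 replicate 33) to 0.34 without single libraries. The miR-34b to miR-34c ratio ran from -0.075 to 0.19 at EGME60 and from -0.15 to 0.10 at EGME75, turning in 5 and 8 such fits. The miR-34c arm ratio at EGME75 ran from 1.26 to 1.62 and passed in 5 of 20. Depth limits precision at EGME75, where 3 of 10 libraries held under 1000 miRNA counts.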
